A study of Mus musculus with 2 samples.

Results

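Crem, Rfx2, Rfx3, Rfx4, Rfx8, Foxj1, Mybl1, Tbpl1 and Sox30 are 9 genes for transcription regulators that act in meiotic and haploid male germ cells. They were listed by name, with earlier results of these data known, and all 9 of 9 were found in the gene lists of both libraries, among 30052 genes in all. Their raw counts were followed along the germ cell stages of adult mouse testis in 1 wild-type (WT) library and 1 Nsun7 knockout library. Nsun7 encodes a protein related to the NSUN methyltransferases of RNA, and the series concerns assembly of the sperm flagellum. The labels give the animals as adult. The sources used here give no strain, exact age, number of animals per library or deleted part of Nsun7. Each genotype has 1 library, so no difference could be checked against replicates and no test was run. Every interval below is at 95% and reflects counting error alone.

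MYBL1 (A-MYB) is the MYB family factor that switches on the pachytene programme of spermatocytes, including piRNA precursors and their protein partners, and Rfx2 has been described as one of its targets. RFX proteins bind X-box elements in the promoters of ciliary and flagellar genes, often together with FOXJ1, the main activator of motile cilia genes. CREM, with its cofactor FHL5, drives protamine and transition protein genes in spermatids. TBPL1 (TRF2) is a relative of the TATA-binding protein that spermatids need to develop, and SOX30 is an HMG box factor of the post-meiotic programme.

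The sequences before the start sites of 3 members are shown first, because Mybl1 is itself a member. Each is the 250 bases before the RefSeq start on GRCm38.p6, written 5′ to 3′ on the gene's strand, and capitals mark MYB-type letters (TAACNG or CAACNG on either strand, overlapping matches counted separately).
Rfx2, chr17:56831009-56831258, minus strand: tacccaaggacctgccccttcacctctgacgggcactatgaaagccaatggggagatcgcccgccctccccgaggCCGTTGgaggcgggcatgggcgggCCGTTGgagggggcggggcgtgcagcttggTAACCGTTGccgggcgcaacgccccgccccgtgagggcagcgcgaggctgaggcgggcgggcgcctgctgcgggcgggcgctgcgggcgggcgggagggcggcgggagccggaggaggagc
Rfx8, chr1:39720990-39721239, minus strand: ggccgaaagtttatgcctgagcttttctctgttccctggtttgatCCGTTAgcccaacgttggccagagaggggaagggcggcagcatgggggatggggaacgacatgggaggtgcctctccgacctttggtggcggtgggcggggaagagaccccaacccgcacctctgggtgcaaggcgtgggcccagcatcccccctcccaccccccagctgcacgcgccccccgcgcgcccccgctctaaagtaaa
Sox30, chr11:45980060-45980309, plus strand: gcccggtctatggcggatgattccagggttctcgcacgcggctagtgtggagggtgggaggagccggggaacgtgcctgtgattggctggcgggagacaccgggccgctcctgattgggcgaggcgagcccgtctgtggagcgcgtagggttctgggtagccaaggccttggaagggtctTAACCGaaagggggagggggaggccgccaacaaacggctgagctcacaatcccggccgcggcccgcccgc
The Rfx2 sequence held 4 matches, and the 2 nearest the start overlap in 1 capital stretch. The Rfx8 and Sox30 sequences held 1 match each, and the window of Tbpl1 held 0. In windows of 300 bases (250 before and 50 after the start), 49.7% of the 32851 RefSeq promoters searched held at least 1 such match and 1.22% held 4 or more. Promoter entries were used for 6 of the 9 members (Rfx2, Rfx3, Rfx4, Rfx8, Tbpl1 and Sox30), and 5 of these 6 held a match. In the list of MYB relatives and known MYBL1 targets, 8 of 11 genes with an entry held a match. A gene was counted if any of its entries matched, while shares of all promoters, here and below, count each entry by itself. The 2 kinds of share are thus not alike. Rfx4 had 2 entries, with MYB-type matches in 1 of them, and some genes of the list also had more than 1 entry. The full cAMP response element that CREM binds (TGACG followed directly by TCA, its own reverse complement) was in 1.79% of all promoters and in 0 of the 6 members. It was also in 0 of the 6 genes with an entry among those known to depend on CREM. The shorter TGACG alone was in 20.8% of all promoters, in 2 of the 6 members and in 0 of those 6 CREM dependent genes. Variant forms of the element were not searched. The X-box was in 1.53% of all promoters and in 0 of the 6 members. The X-box was searched as the name is commonly used, with 0 to 3 bases between its arms, on both strands. A match describes letters only, and none was tested as a binding site.

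The WT matrix held 220247156 counts in 16376 barcodes and the knockout matrix 210531446 counts in 16837 barcodes, and 15139 and 13869 cells passed the filter. The libraries shared 2168 barcode names, and 0 of these had identical counts. Cells were grouped into classes from fixed markers, without the 9 genes or Nsun7, so each class is to be read as like its named type. Of 10 markers per germ class, all 10 were highest in their own class for early spermatocytes, round spermatids and elongating spermatids in both libraries. For late spermatocytes the number was 8 in WT and 7 in the knockout library, and for spermatogonia it was 7 and 6. The same markers named the clusters, so this count is not an independent check of the names. The libraries differed in composition. Late spermatocyte-like cells came to 18.3% in WT (2770 cells) and 4.42% in the knockout library (613 cells), and elongating spermatid-like cells 34.0% (5148) and 62.5% (8674). Median depths were 16920 and 9037 unique molecular identifiers (UMIs) per cell in late spermatocyte-like cells, 12840 and 8176 in round spermatid-like cells, and 11760 and 14940 in elongating spermatid-like cells, in WT and knockout order. Nsun7 itself was at 217 CPM (the gene's counts per 1000000 counts of the class) in WT and 53.7 CPM in knockout late spermatocyte-like cells. In round spermatid-like cells it was at 219.9 and 40.7 CPM. Its counts were thus lower in the library labelled knockout and not at 0.

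All 9 regulators peaked in late spermatocyte-like or round spermatid-like cells, at the same stage in both libraries. Of the 9, 4 were highest in late spermatocyte-like cells (Rfx2, Rfx8, Mybl1 and Tbpl1) and 5 in round spermatid-like cells (Crem, Rfx3, Rfx4, Foxj1 and Sox30). In elongating spermatid-like cells Rfx2, Rfx3, Crem and Sox30 stayed above the level in Leydig-like cells, a somatic class set beside the germ cells as a reference. In WT, Rfx8, Foxj1, Mybl1 and Tbpl1 were there at or below the Leydig-like level. Whether the Leydig-like counts are free RNA or transcripts of those cells was not tested, so that level is a reference only. It was not the same in every somatic class. Tbpl1 was at 74.3 CPM in Leydig-like, 222 CPM in Sertoli-like and 258 CPM in macrophage-like cells of WT, and at 21.3, 150.6 and 66.4 CPM in those of the knockout library. CPM values are not corrected for gene length, so levels are compared within a gene only.

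**Figure D1:**
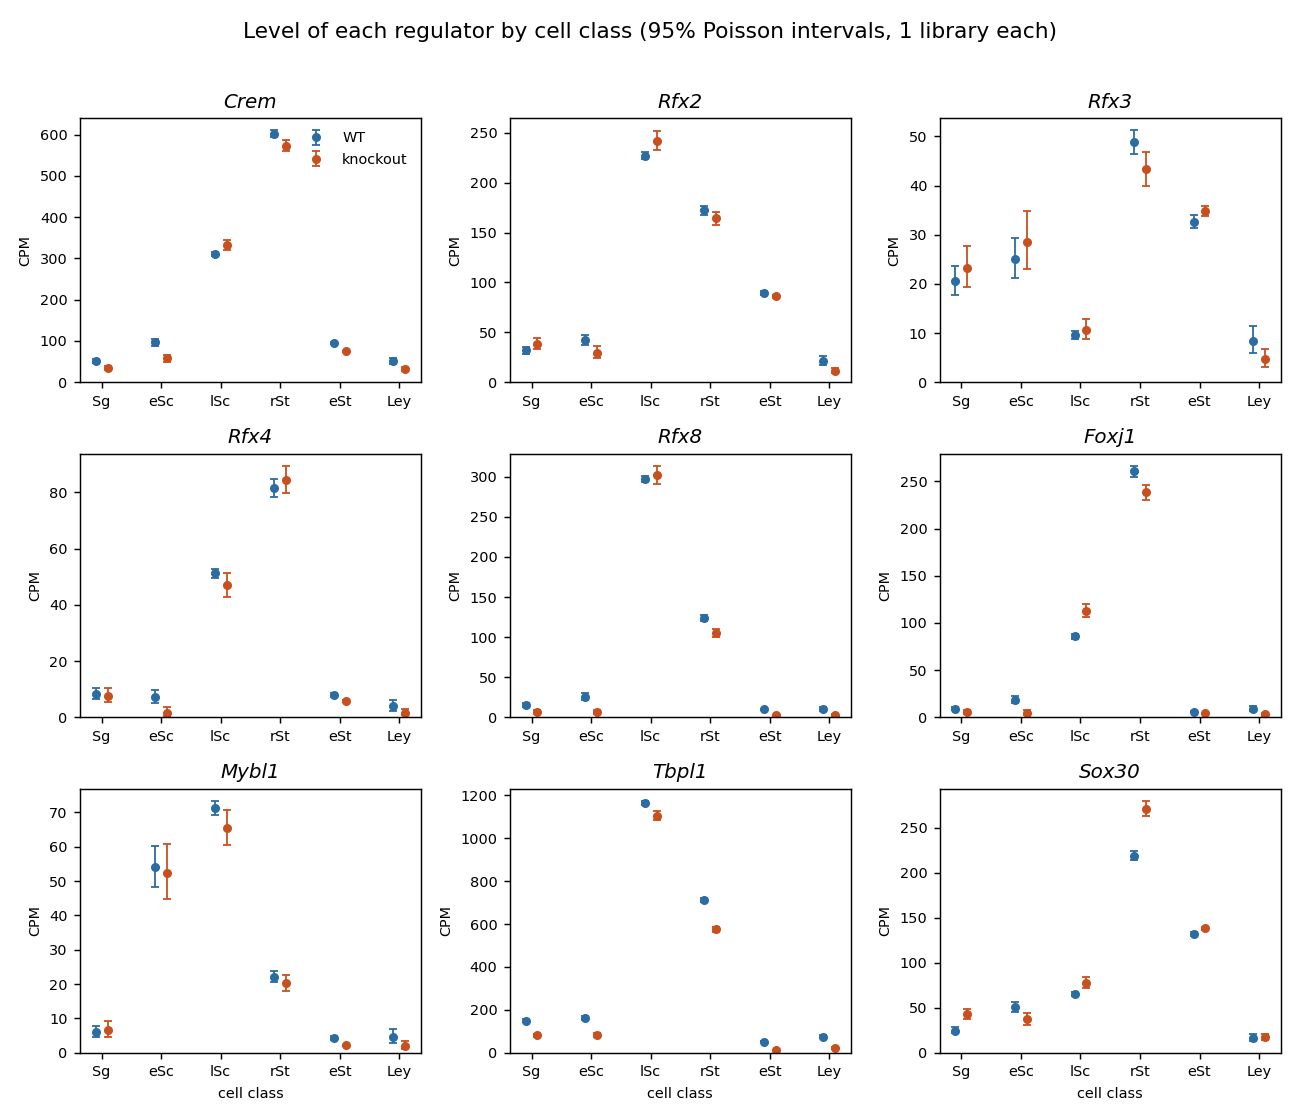
CPM of each of the 9 regulators (vertical axes, linear, from 0) in spermatogonium-like (Sg), early spermatocyte-like (eSc), late spermatocyte-like (lSc), round spermatid-like (rSt), elongating spermatid-like (eSt) and Leydig-like (Ley) cells of the WT (blue) and knockout (orange) library, with 95% Poisson intervals as bars. Rfx2, Rfx8, Mybl1 and Tbpl1 are highest in late spermatocyte-like cells and the other 5 in round spermatid-like cells, in both libraries.

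Among the meiotic regulators, Mybl1 (chromosome 1, 9667415 to 9700209, minus strand, GRCm38) was the earliest of the 4 to come near its peak. It was at 6.05 CPM in WT against 6.58 CPM in knockout spermatogonium-like cells. In early spermatocyte-like cells it stood at 54.1 CPM (48.3 to 60.3) in WT and 52.4 CPM (44.9 to 60.8) in the knockout library. In late spermatocyte-like cells it stood at 71.2 CPM (69.3 to 73.2) and 65.5 CPM (60.6 to 70.8). The order of these last 2 stages was separated in WT, while their intervals overlapped in the knockout library. Round spermatid-like cells were at 22.2 and 20.2 CPM, and elongating spermatid-like cells at 4.28 and 2.12 CPM, beside 4.42 and 1.90 CPM in Leydig-like cells. By cluster, WT Mybl1 was highest in the late spermatocyte-like cluster led by Dnaic2 and Aurka (98.6 CPM). In the knockout library that cluster was at 99.1 CPM, and the early spermatocyte-like cluster led by Meiob and Sycp3, with 52 cells, was at 115 CPM with a wide interval (79.3 to 162).

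Tbpl1 (chromosome 10, 22703879 to 22731938, minus strand) had its highest class level in late spermatocyte-like cells, as Mybl1 did. In WT it went from 162 CPM in early spermatocyte-like cells to 1164 CPM (1156 to 1172) in late spermatocyte-like cells and 711 CPM (702 to 720.2) in round spermatid-like cells. The knockout values were 83.2, 1105 (1085 to 1126) and 575.5 CPM (563 to 588). Elongating spermatid-like cells were at 51.5 CPM in WT against 12.8 CPM in the knockout library, both below the Leydig-like levels of 74.3 and 21.3 CPM. Across clusters Tbpl1 was at 1248 CPM (1235 to 1261) in the Aurka cluster of WT and 1284 CPM (1267 to 1300.0) in the cluster led by Iqca. The knockout order was the other way, at 1187 CPM (1144 to 1232) and 1141 CPM (1109 to 1174), with intervals that overlapped. The Iqca cluster is the latest of the 3 late spermatocyte-like clusters by its round spermatid score. That score differed from its own class score by less than 0.2, so it is called transitional below.

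Rfx8 (chromosome 1, 39665301 to 39720997, minus strand), an RFX family member of which little is known, had a narrow window. Late spermatocyte-like cells were at 297 CPM (293 to 301) in WT and 302 CPM (291 to 313) in the knockout library. Round spermatid-like cells were at 123 and 105 CPM, and elongating spermatid-like cells at 10.01 and 2.43 CPM beside 10.1 and 2.42 CPM in Leydig-like cells. The clusters showed where the window opened and closed. Rfx8 was at 113 and 128 CPM in the late spermatocyte-like cluster led by Piwil1, at 412 and 436 CPM in the Aurka cluster and at 359 and 360.4 CPM in the Iqca cluster. It was at 157 and 146 CPM in the first round spermatid-like cluster (led by Tex36) and at 17.4 and 5.81 CPM in the second (led by Dyrk4).

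Rfx2 (chromosome 17, 56775897 to 56831013, minus strand), the RFX factor needed for flagellum formation, reached its highest class level with Rfx8 but fell off slowly. Late spermatocyte-like cells were at 227 CPM (223 to 230.3) in WT and 242 CPM (233 to 252) in the knockout library. Values in round spermatid-like cells were 172 and 164 CPM. Elongating spermatid-like cells kept 89.5 CPM (87.4 to 91.7) and 86.01 CPM (84.5 to 87.5), against 21.3 and 11.4 CPM in Leydig-like cells. The top cluster was the Iqca cluster in both libraries, at 256.5 and 266 CPM.

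Among the regulators highest in spermatids, Crem rose over meiosis and peaked after it. In WT it was at 51.1 CPM in spermatogonium-like cells, 96.3 CPM in early spermatocyte-like cells, 311 CPM (307 to 315) in late spermatocyte-like cells and 601 CPM (593 to 609.9) in round spermatid-like cells. The knockout series was 34.1, 57.5, 332 (320.5 to 343.5) and 573 CPM (561 to 586). Levels were 94.4 and 74.7 CPM in elongating spermatid-like cells, beside 51.2 and 32.01 CPM in Leydig-like cells. The peak lay in the Tex36 cluster, at 629.5 CPM (619.7 to 639.5) in WT and 635.5 CPM (620 to 651) in the knockout library. Gene counts do not tell the activator and repressor isoforms of Crem apart.

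Foxj1 (chromosome 11, 116330704 to 116335399, minus strand) stepped up at the end of meiosis. It was at 85.7 CPM in WT against 113 CPM in knockout late spermatocyte-like cells and at 260.5 CPM (255 to 266) and 238 CPM (230.3 to 246) in round spermatid-like cells. Elongating spermatid-like cells held 5.95 and 4.16 CPM, close to the 8.84 and 3.11 CPM of Leydig-like cells. Within the late spermatocyte-like class it stood at 4.71 and 1.86 CPM in the Piwil1 cluster, 50.8 and 39.8 CPM in the Aurka cluster and 247.5 and 240.3 CPM in the Iqca cluster. It then reached 327 and 323 CPM in the Tex36 cluster and was down to 53.2 and 32.2 CPM in the Dyrk4 cluster.

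Rfx4 (chromosome 10, 84756062 to 84906538, plus strand), known from brain and testis, differed from Foxj1 in staying up in the second round spermatid-like cluster. It was at 51.2 and 47.0 CPM in late spermatocyte-like cells and at 81.4 CPM (78.3 to 84.6) and 84.4 CPM (79.6 to 89.3) in round spermatid-like cells, in WT and knockout order. The Dyrk4 cluster was at 98.1 CPM (91.3 to 105) in WT and 82.1 CPM (73.6 to 91.3) in the knockout library. The Tex36 cluster was at 76.03 and 85.3 CPM, so WT was highest in the second of these clusters while the knockout intervals overlapped. Elongating spermatid-like cells were at 8.04 and 5.93 CPM, beside 4.001 and 1.56 CPM in Leydig-like cells.

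Rfx3 (chromosome 19, 27761721 to 28011166, minus strand), a ciliogenic factor of many tissues, was the lone member with a dip at the stage where Rfx2 and Rfx8 peaked. It was at 25.0 CPM in WT against 28.5 CPM in knockout early spermatocyte-like cells, at 9.58 CPM (8.87 to 10.3) and 10.7 CPM (8.73 to 13.0) in late spermatocyte-like cells, and at 48.8 CPM (46.4 to 51.3) and 43.4 CPM (40.02 to 46.9) in round spermatid-like cells. Elongating spermatid-like cells were at 32.6 and 34.8 CPM. In Leydig-like cells Rfx3 was at 8.42 CPM in WT, close to the late spermatocyte-like level. In the knockout library it was at 4.67 CPM (3.08 to 6.80), under the late spermatocyte-like level.

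Sox30 (chromosome 11, 45980310 to 46017994, plus strand) came last. Its class levels in WT were 24.5 CPM in spermatogonium-like, 50.5 in early spermatocyte-like, 65.3 in late spermatocyte-like, 219 (214 to 224) in round spermatid-like and 132 CPM (129 to 134.5) in elongating spermatid-like cells. The knockout values were 42.4, 36.9, 77.8, 271 (262.5 to 279.7) and 138 CPM (136 to 140). The Leydig-like level was 16.2 and 17.5 CPM. Sox30 was at 169 and 195 CPM in the Tex36 cluster, at 374 and 456.5 CPM in the Dyrk4 cluster, and at 394 and 424 CPM in the first elongating spermatid-like cluster, led by Fam71b, whose own and next class scores also differed by less than 0.2. The elongating spermatid-like clusters led by Odf1 and Lelp1 were at 13.4 to 23.9 CPM in both libraries, at about the Leydig-like level.

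**Figure D2:**
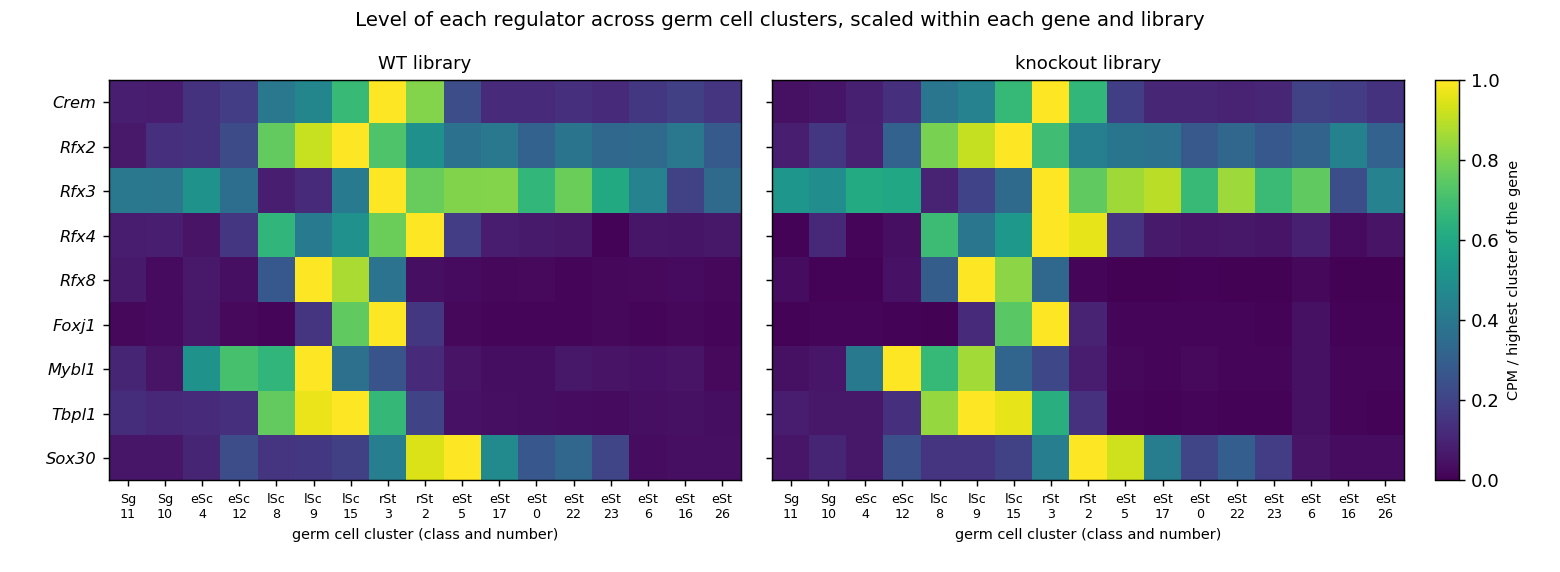
CPM of each regulator in the 17 germ cell clusters (horizontal axis, class abbreviation and cluster number, each with 52 or more cells per library), divided by the gene's highest cluster in that library (colour scale from 0 to 1), for WT (left) and knockout (right). The bright squares move to the right from Mybl1 and Rfx8 to Foxj1 and Crem and then Sox30 in both panels, and Rfx3 is dark at late spermatocyte-like clusters 8 (led by Piwil1) and 9 (led by Dnaic2 and Aurka).

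A finer axis within spermatids was given by the share of each cell's counts from Prm1, Prm2, Tnp1 and Tnp2, the protamine and transition protein genes of nuclear condensation. Foxj1 was among the members that fell early along it. In WT it was at 382 CPM in cells with a share under 0.5%, 283 CPM at 0.5 to 2%, 70.3 CPM at 2 to 5% and 17.02 CPM at 5 to 10%. The knockout library was at 304, 62.2 and 19.6 CPM in the last 3 of these bins. Crem kept 494 CPM in WT against 389.6 CPM in the knockout library at 2 to 5%, and 302 and 295 CPM at 5 to 10%. It was at 101.5 and 89.3 CPM at 10 to 20%. Rfx4 kept its level longer and dropped between 5 to 10% (62.2 CPM in WT, 51.7 CPM in the knockout library) and 10 to 20% (7.79 and 7.57 CPM). Sox30 was highest at 5 to 10%, later than those 3. Its WT values over the 6 bins were 136, 199, 306, 392, 140.3 and 107 CPM, and the knockout values over the 5 bins with cells were 205, 270.3, 396, 172 and 118 CPM. The top at 5 to 10% was thus shared by both libraries, at 392 CPM (373 to 412) and 396 CPM (374 to 420.2).

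**Figure D3:**
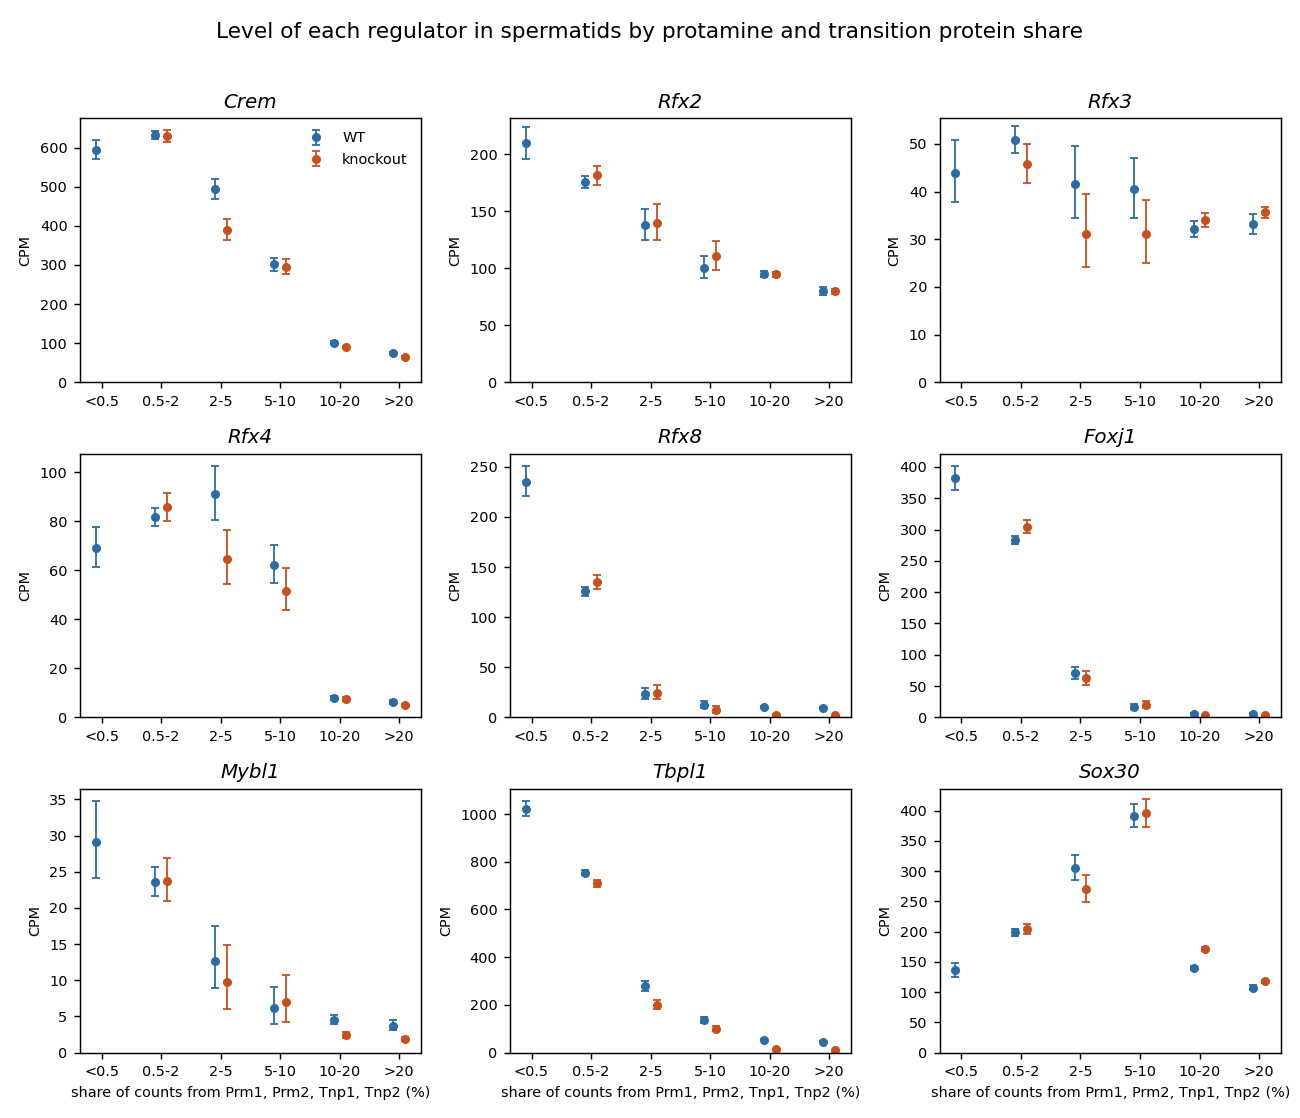
CPM of each regulator (vertical axes, linear, from 0) in round and elongating spermatid-like cells binned by the percent of counts from Prm1, Prm2, Tnp1 and Tnp2 (horizontal axis), with 95% Poisson intervals, WT in blue and knockout in orange. Foxj1 and Rfx8 drop before 5%, Crem and Rfx4 drop again between 5 to 10% and 10 to 20%, and Sox30 is highest at 5 to 10% in both libraries; the knockout library has no cell under 0.5%.

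The bins do not hold equal cells in the 2 libraries. Of spermatid-like cells, 166 in WT and 0 in the knockout library had a share under 0.5%. The median share was 0.706% in WT and 1.73% in knockout round spermatid-like cells, and it was also higher in knockout than in WT Leydig-like cells (0.481% and 0.760%). Called doublets were 7.46% of WT and 8.91% of knockout Leydig-like cells. The part of this higher share in the differences between bins was not tested.

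The comparison of the libraries asked whether any of these regulators differed with Nsun7 genotype. In late spermatocyte-like cells none of the 9 was 1.5 times or more apart, beside 2.19% of 7990 genes higher and 0.288% lower in the knockout library. In round spermatid-like cells again none of 9 was, beside 1.57% of 8217 genes higher and 0.280% lower. For these counts and those below, genes had a mean of at least 10 CPM and 5 CPM was added to both values before the ratio was taken. Knockout over WT ratios, taken without that addition, ran from 0.918 (Rfx4) to 1.32 (Foxj1) in late spermatocyte-like cells and from 0.809 (Tbpl1) to 1.24 (Sox30) in round spermatid-like cells. Of the 9 intervals, 3 held 1 in each of the 2 classes.

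Crem, the factor closest to the protamine genes, was at 1.07 times the WT level in late spermatocyte-like cells (1.03 to 1.11) and 0.953 times in round spermatid-like cells (0.929 to 0.978). Without the Iqca cluster its log2 ratio in late spermatocyte-like cells was -0.05 in place of 0.09. In the Tex36 cluster its ratio was 1.01 (0.980 to 1.04), and in the Dyrk4 cluster 0.821 (0.775 to 0.868). Rfx2 was at 1.07 (1.02 to 1.12) and 0.953 (0.908 to 1.00), and Rfx8 at 1.02 (0.978 to 1.06) and 0.851 (0.801 to 0.903). Tbpl1 was at 0.950 (0.931 to 0.969) in late spermatocyte-like and 0.809 (0.789 to 0.830) in round spermatid-like cells. Sox30 was higher in both, at 1.19 (1.10 to 1.29) and 1.24 (1.19 to 1.29), and its ratio was 1.15 in the Tex36 cluster and 1.22 in the Dyrk4 cluster. A higher Sox30 level was not particular to germ cells. Its ratio was 1.56 (1.30 to 1.88) in Sertoli-like, 1.89 (1.26 to 2.87) in macrophage-like and 1.91 (1.30 to 2.82) in interstitial stroma-like cells. It was 1.08 (0.793 to 1.47) in Leydig-like and 0.731 (0.587 to 0.905) in early spermatocyte-like cells. With separate clustering of the libraries, a cluster led by Fam71b was named round spermatid in WT (629 cells). The knockout cluster led by Fam71b (624 cells) was named elongating spermatid, so these classes did not hold like cells. The log2 ratios in round spermatid-like cells then turned sign for 7 of the 9 members. They went from -0.31 to 0.27 for Tbpl1, from 0.31 to -0.26 for Sox30 and from -0.07 to 0.32 for Crem. They reached 0.19 for Rfx2, 0.36 for Rfx8, 0.52 for Foxj1 and 0.34 for Mybl1, all below 0 before. Crem also turned under trimmed mean scaling, to 0.03.

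The class ratio of Foxj1 was set beside the ratios within its clusters. In late spermatocyte-like cells it was 1.32-fold higher in the knockout library (1.23 to 1.40). The Iqca cluster, where Foxj1 is high, held 936 of the 2770 WT cells and 353 of the 613 knockout cells of the class. The Foxj1 ratio within that cluster was 0.971 (0.906 to 1.04), and 0.783 (0.629 to 0.965) in the Aurka cluster. In the Piwil1 cluster, where Foxj1 was at 4.71 and 1.86 CPM, it was 0.395 (0.142 to 0.888). Given equal cluster shares in the libraries, the log2 ratio of the class went from 0.39 to -0.09, and without the Iqca cluster to -0.73. Over all 9 members the ratios within the Tex36 cluster ran from 0.869 to 1.15.

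**Figure D4:**
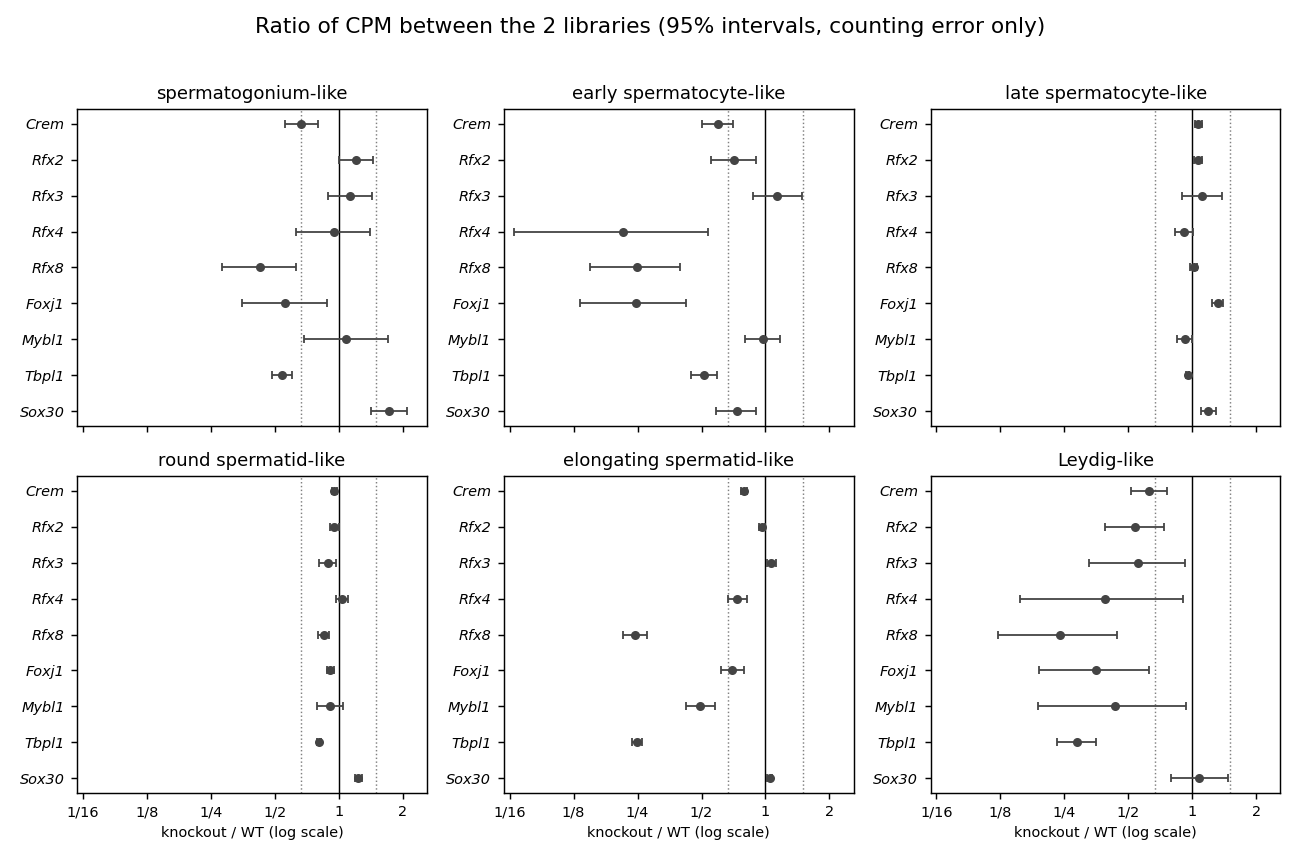
Knockout over WT ratio of CPM for each of the 9 regulators (horizontal axis, log scale) in 5 germ cell classes and in Leydig-like cells, with exact 95% intervals for counting error as bars; dotted lines mark 1.5 times in either direction. Ratios in late spermatocyte-like and round spermatid-like cells lie between 0.809 and 1.32, while Rfx8 and Tbpl1 are low in early spermatocyte-like, elongating spermatid-like and Leydig-like cells alike.

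In elongating spermatid-like cells 5 members reached 10 CPM, and 1 of them, Tbpl1, was 1.5 times or more lower in the knockout library. None of the 5 was higher. Over 4832 genes, 8.90% were lower and 0.0207% higher, and the median log2 ratio of all genes was -0.09. Tbpl1 was at 51.5 CPM in WT against 12.8 CPM in the knockout library, a ratio of 0.249 (0.236 to 0.263). Its ratio in Leydig-like cells was 0.286 (0.231 to 0.353), from 74.3 to 21.3 CPM, and over all barcodes it was at 545 and 129.5 CPM. The libraries filled this class from different clusters. The cluster led by Gm6812 and Odf1 held 1351 WT and 64 knockout cells, while those led by H2al3, by Defb33 and Prm1, and by Odf1 and Spata3 held 54, 98 and 124 WT cells and 1422, 2227 and 1221 knockout cells. In the first of these Tbpl1 was at 51.8 and 51.6 CPM, a ratio of 0.996 (0.709 to 1.36). The ratio was 0.241 to 0.349 in each of the other 7 clusters of the class, such as 0.241 (0.213 to 0.274) in that led by Spertl with 548 WT and 1389 knockout cells. In the class with an equal mix of clusters its log2 ratio was -1.48. Free RNA was estimated by scaling the profile of all barcodes, not of empty droplets, to the level of 4 Leydig cell genes in the class. It came to 38.6 CPM of Tbpl1 in WT and 7.03 CPM in knockout elongating spermatid-like cells, and after its subtraction the log2 ratio was -1.18. In WT the estimate for Tbpl1 was 60.8 of 222 CPM in Sertoli-like and 147 of 258 CPM in macrophage-like cells. Whether the subtraction removes all free RNA was not tested. Rfx8 (10.01 and 2.43 CPM) and Mybl1 (4.28 and 2.12 CPM), both under a mean of 10 CPM, also stood at their Leydig-like levels in both libraries. Rfx2 and Rfx3, which stood above that level, had ratios of 0.961 (0.933 to 0.990) and 1.07 (1.02 to 1.12), and Sox30 1.05 (1.02 to 1.07). Crem was at 0.792 (0.769 to 0.816). Trimmed mean scaling moved all genes of this class by 0.36 on the log2 scale, after which the log2 ratio of Crem was 0.02 in place of -0.34.

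Early spermatocyte-like cells gave the most members apart. Of 8 members at 10 CPM or more, 4 were 1.5 times or more lower in the knockout library (Crem, Rfx8, Foxj1 and Tbpl1) and none was higher, beside 7.43% of 9430 genes lower and 0.997% higher. Crem was at 96.3 and 57.5 CPM, a ratio of 0.597 (0.504 to 0.705). Tbpl1 was at 162 and 83.2 CPM (0.514, 0.448 to 0.589), Rfx8 at 25.5 and 6.36 CPM (0.249, 0.150 to 0.395) and Foxj1 at 18.4 and 4.54 CPM (0.247, 0.133 to 0.425). These 4, like all 9 members, peak at later stages. Each was also lower in knockout than in WT Leydig-like cells, with ratios of 0.626 (Crem), 0.286 (Tbpl1), 0.240 (Rfx8) and 0.352 (Foxj1). This was not particular to the 4, as 8 of the 9 members had Leydig-like intervals below 1. In early spermatocyte-like cells 7 of the 9 intervals were below 1, and those of Rfx3 and Mybl1 held 1. Any link between the 2 classes was not tested. With the free RNA estimate subtracted the log2 ratios were -0.58 for both Crem and Tbpl1, -1.52 for Rfx8 and -1.96 for Foxj1. None of the 4 was then counted, Crem and Tbpl1 because they were under 1.5 times and Rfx8 and Foxj1 because their means were under 10 CPM. The class has 2 clusters. In that led by Stra8 and Prss50, with 921 WT and 412 knockout cells, Tbpl1 was at 159 and 75.9 CPM. In the Meiob cluster, with 173 and 52 cells, it was at 172 and 160.5 CPM, a ratio of 0.932 (0.662 to 1.29). Mybl1, which came near its peak at this stage, had a ratio of 0.969 (0.800 to 1.17) in the class.

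In spermatogonium-like cells 6 members reached 10 CPM. Rfx8 and Tbpl1 were 1.5 times or more lower in the knockout library and Sox30 was higher, beside 3.18% of 9878 genes lower and 7.69% higher and a median log2 ratio of all genes of -0.19. Rfx8 was at 15.01 and 6.39 CPM, of which the free RNA estimate was 11.97 and 2.04 CPM. Tbpl1 was at 148.5 and 80.6 CPM, of which the estimate was 51.4 and 8.83 CPM. Sox30 was at 24.5 and 42.4 CPM, a ratio of 1.73 (1.43 to 2.09). In this class 8.75% of WT cells and 16.2% of knockout cells were called doublets, and without them the log2 ratio of Sox30 was -0.038.

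The share of cells with at least 1 UMI told the same stages apart. After thinning each cell to 1000 UMIs, Crem was seen in 42.4% of WT and 39.3% of knockout round spermatid-like cells (upper bounds 44.8% and 42.4%), against 4.18% and 2.51% of Leydig-like cells. Before thinning the round spermatid-like shares were 93.8% and 84.2%. Tbpl1 was seen in 65.6% and 64.1% of late spermatocyte-like cells and in 7.46% and 1.67% of Leydig-like cells. Its share in elongating spermatid-like cells was 5.23% (4.63 to 5.87) and 1.43% (1.19 to 1.70). These intervals overlapped those of Leydig-like cells, 4.89 to 10.8 in WT and 0.616 to 3.60 in the knockout library. Sox30 was seen in 20.2% of WT (18.3 to 22.2) and 28.7% of knockout round spermatid-like cells (25.8 to 31.6), with 1.49% and 1.67% in Leydig-like cells. Median depths in Leydig-like cells were 10470 and 14100 UMIs.

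The other genes of these pathways were read from 7 lists. CREM cofactors and relatives showed no gene 1.5 times or more apart among 7 at 10 CPM in late spermatocyte-like, 8 in round spermatid-like and 5 in elongating spermatid-like cells. Their median log2 ratio in round spermatid-like cells was 0.08, beside -0.07 for all genes. In spermatogonium-like cells 2 of 10 were higher in the knockout library, beside 7.69% of all genes. These were Fhl5 (51.1 and 121 CPM) and Camk4 (43.7 and 71.1 CPM). Fhl5, the testis cofactor of CREM, went from 18.1 CPM in WT late spermatocyte-like cells to 288 CPM in round spermatid-like and 391 CPM in elongating spermatid-like cells, and the knockout values were 25.7, 378 and 416 CPM. Kif17, the kinesin that moves FHL5 out of the nucleus, was at 182 and 183 CPM in round spermatid-like cells.

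Of the 8 genes known as CREM dependent, 4 were 1.5 times or more higher in knockout round spermatid-like cells, beside 1.57% of all genes, and none was lower, with a median log2 ratio of 0.64. They were Tnp1 (4164 and 7247 CPM), Tnp2 (2248 and 4376 CPM), Prm1 (3296 and 6986 CPM) and Prm2 (4134 and 7040 CPM). Tnp1, Tnp2 and Prm1 were also higher in knockout late spermatocyte-like cells (2.19% of all genes), where Prm1 was at 1498 and 2944 CPM. In spermatogonium-like cells 6 of the 8 were higher (7.69% of all genes) and Acr was lower (3.18% of all genes). In elongating spermatid-like cells, where the protamine and transition protein genes are at their highest, 0 of 8 were higher and Acr, which encodes the acrosomal protease acrosin, was lower (28.7 and 12.35 CPM), as were 8.90% of all genes. The median log2 ratio there was 0.01. Tnp1, Tnp2, Prm1, Prm2, Odf1 and Smcp were themselves markers used to name elongating spermatid-like cells, and Acr to name round spermatid-like cells. Their levels in these classes thus partly follow from the naming. The summed share of the 4 protamine and transition protein genes was higher in the knockout library in Leydig-like cells as well (0.481% and 0.760%), and the part of that share in the values of earlier stages was not tested.

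Among RFX relatives and partners, Rfx1, which binds the same X-box, was 1.5 times or more higher in knockout late spermatocyte-like cells (14.6 and 24.7 CPM), as 1 of 3 measured, beside 2.19% of all genes. It was at 66.8 and 76.3 CPM in round spermatid-like cells, where 0 of 2 measured were apart. Ciliogenesis regulators had 0 of 6 apart in late spermatocyte-like and 0 of 4 in round spermatid-like cells, with medians of 0.05 and -0.07. Fank1, a germ cell factor of that list, stood at 560.0 and 599 CPM and at 473 and 479 CPM in those classes. The general transcription machinery had 0 of 9 and 0 of 7 apart in these classes. Gtf2a1l, the germ cell form of TFIIA that works with TBP relatives, was at 770 and 815 CPM in late spermatocyte-like and 709.7 and 704 CPM in round spermatid-like cells. In elongating spermatid-like cells Gtf2a1l (100.8 and 57.8 CPM) and Gtf2a2 (42.5 and 15.95 CPM) were 2 of 3 measured that were lower, beside 8.90% of all genes.

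MYB relatives and known MYBL1 targets had 0 of 11 apart in late spermatocyte-like cells, with a median of -0.23 beside -0.03 for all genes. Piwil1, a piRNA-binding protein and MYBL1 target, was at 356 and 267 CPM there, and the cluster it leads holds 890 of the WT and 151 of the knockout cells of the class. In round spermatid-like cells it was lower (19.4 and 8.96 CPM), as 1 of 7 measured, beside 0.280% of all genes. Of the other meiotic and spermatid regulators 0 of 13 were apart in late spermatocyte-like and 0 of 11 in round spermatid-like cells. Spz1 was at 1292 and 1458 CPM and Phf7, a histone reader of spermatids, at 1107 and 1096 CPM in round spermatid-like cells. In early spermatocyte-like cells 4 of 13 in this list were lower, among them Kctd19 (117 and 47.5 CPM) and Sox5 (24.8 and 8.47 CPM), beside 7.43% of all genes.

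Genes whose pattern across 12 germ cell clusters was most like that of a member were ranked by Pearson r of log2(CPM + 5), taking the smaller r of the 2 libraries, among 6624 genes. The 12 points share their library, and clusters differ in depth, so r is a description. For 8 members, all but Rfx3, the 3 leading genes had r above 0.95 in both libraries. Crem was most like Tekt2, a flagellar tektin (r 0.973 in WT and 0.978 in the knockout library), Armc4 (0.969 and 0.965) and Tmem232 (0.967 and 0.965). Rfx8 was most like Rgcc (0.990 and 0.991), Epyc and Ccna1, a cyclin of late spermatocytes (0.992 and 0.988). Tbpl1 was most like Lyar (0.998 and 0.998), Supt20 and Gkap1. Foxj1 was most like Iqca (0.982 and 0.967), Prss46 and Zfp819. Mybl1 was most like Ccdc117 (0.975 and 0.971), Gpr19 and Spdya, a cell cycle activator of meiosis (0.967 and 0.967). Rfx2 was most like Stk39 (0.982 and 0.981), Mkrn1 and Rcor3, Rfx4 most like Ankrd7 (0.971 and 0.964), Fbxo36 and Ccdc89, and Sox30 most like Knop1 (0.969 and 0.980), Ip6k1 and Ckmt2.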

How the data were processed

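The data are single-cell counts from adult mouse testis, with 1 WT and 1 Nsun7 knockout library prepared from dissociated tissue by the DNBelab C Series method, per the labels' protocols. The authors deposited raw counts for each gene in each barcode, whole numbers in matrices that PISA 0.12 wrote, per the file headers. GRCm38 is the build in the submitters' processing notes. Not given in the sources used here were aligner, annotation and barcode filter. Barcodes were taken as cells and counts as UMIs. Kept barcodes had at least 200 genes and no more than 20% mitochondrial counts, and doublets called by Scrublet (scanpy 1.11.5) stayed in. The 3000 variable genes, 40 principal components, 20 neighbours and Leiden resolution 1 (igraph 0.11.9) gave 27 clusters of both libraries together, with no batch correction. The 9 members and Nsun7 took no part in clustering. Each cluster was named by its best mean score of fixed markers. It stayed unnamed where it was mostly called doublets, where its counts times 3 fell below its library's median and it had no own leading marker, or where another class had more leading markers. The naming limits were set after the clusters were seen.

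Counts were summed per class and library and divided by the class total. CPM intervals are exact Poisson, ratio intervals exact conditional binomial, and shares exact Clopper-Pearson, all at 95%. Ratios that count genes 1.5 times apart add 5 CPM and need a mean of 10 CPM. The rule for named genes took all members and Nsun7. From each of the 7 lists, in late spermatocytes and both spermatid classes, it took the genes with the highest and lowest ratio and the 3 with most counts. For each member at 50 CPM or more it took the 3 genes most alike. Other list genes named were chosen after their values were seen. The members and lists were chosen with earlier results of these data known. Of 77 list genes, 76 are in the files. Gene positions are from GENCODE M21 and promoters from RefSeq on GRCm38.p6. Ratios, their intervals, the 1.5-fold count and trimmed mean scaling were tried on simulated class sums. Cell filtering, clustering and class naming were not. Calculations used Python 3.11.15, numpy 2.4.6, scipy 1.17.1 and pandas 2.3.3. Alternatives covered cell filters, doublets, clustering, scaling, free RNA, cluster and protamine mix, minimum level, prior and thinning.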

Additional observations from a re-analysis of the deposited data

How the results depend on the processing

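The stage with the highest level was the same for all 9 members in both libraries under every alternative run: a stricter cell filter, called doublets removed, Leiden resolution 2, each library clustered on its own, trimmed mean scaling, free RNA subtracted, equal cluster shares, and transitional clusters left out (the last chosen after seeing the data). Ratios between the libraries were less settled. In round spermatids the log2 ratios of 8 of 9 members, all but Rfx3, crossed 0 over the 9 settings run, and in early spermatocytes that of Mybl1 alone did over 8. In spermatogonia those of all members but Crem and Tbpl1 crossed 0. Those of Crem, Foxj1, Mybl1, Rfx3 and Rfx8 did in late spermatocytes, and those of Crem, Foxj1 and Rfx2 in elongating spermatids. The log2 ratio of Foxj1 in elongating spermatids ran from -0.54 to 1.69. For round spermatids these settings include separate clustering, where the classes of the libraries did not hold like cells. In spermatogonia the count of members 1.5 times or more lower in the knockout library went from 2 to 1 with the stricter filter and 0 with free RNA subtracted. With the stricter filter Rfx8 was still at -1.12 on the log2 scale. The count of members higher went from 1 to 0 without called doublets, at resolution 2 and with each library clustered on its own, and to 2 with free RNA subtracted. The log2 ratio of Sox30 there was -0.038 without called doublets, and with free RNA subtracted those of Rfx8 and Foxj1 were 0.47 and 0.39. In early spermatocytes the count of lower members went from 4 to 2 without called doublets and 0 with free RNA subtracted. The log2 ratio of Rfx8 there stayed between -2.92 and -1.52 and that of Foxj1 between -2.60 and -1.67, so part of the loss is from the minimum of 10 CPM. In late spermatocytes 1 member (Foxj1) was lower without the transitional cluster, and in elongating spermatids 1 member (Sox30) was higher with each library clustered on its own. The elongating spermatid class then held a cluster led by Fam71b in the knockout library but not in WT.

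Counts of list genes moved as follows. In the main setting 5 of 62 tested were lower in spermatogonia, 9 of 64 in early and 0 of 57 in late spermatocytes. In round spermatids 1 of 47 was lower, and in elongating spermatids 5 of 31. The higher genes were 10, 0, 4, 4 and 0 in that order. The shares over all genes given above are for the main setting. With a minimum of 50 CPM the lower genes were 0 of 41 in spermatogonia, 3 of 42 in early spermatocytes, 0 of 34 in round and 1 of 23 in elongating spermatids. With no minimum they were 2 of 74 in round and 11 of 76 in elongating spermatids. With free RNA subtracted 16 of 56 were higher and 0 lower in spermatogonia. The lower genes were then 1 of 54 in late spermatocytes, 0 of 47 in round and 1 of 29 in elongating spermatids. Without called doublets 1 of 64 was higher in early and 8 of 57 in late spermatocytes. Trimmed mean scaling gave 3 of 31 higher in elongating spermatids. Apart from what each alternative leaves out by construction, the cause was not tested. No paired analysis was possible because each genotype has 1 library, and no replicate could be left out.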
